A study of Mus musculus with 2 samples.

Results

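The genes described here act in the excitability of the myometrium, the smooth muscle layer of the uterus, and in its response to oxytocin: Oxtr, Cacna1c, Kcnma1, Kcnmb1, Pln, Atp2a2, Itpr1, Gnaq, Rgs2 and Pde5a. They were taken by symbol, and 10 of 10 were found among the 22740 genes of the main table. The values come from RNA sequencing of the whole uterus of 2 C57BL/6 mice on day 4 of pregnancy, with 1 library per animal. The libraries are titled WT1 and WT2, where WT usually stands for wild type, and are called uterus 1 and uterus 2. The labels name no allele, no treatment and no second group. Levels are the authors' RPKM, reads scaled to transcript length and library size, and each mean is given ± SD over the 2 uteri. The 2 values of a gene show how far these animals, and their libraries, lay apart, and no contrast between conditions can be made.

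Oxytocin binds a receptor coupled to the G protein Gq. Gq activates phospholipase C beta, which makes inositol trisphosphate, and inositol trisphosphate opens calcium channels of the sarcoplasmic reticulum. Calcium also enters through L-type channels of the surface membrane, and calcium bound to calmodulin switches on myosin light chain kinase. The BK potassium channel opens on calcium and depolarisation and pulls the membrane back, the SERCA pump returns calcium to the store, and cyclic GMP relaxes the muscle until a phosphodiesterase removes it. The myometrium is known to be quiet in early pregnancy, and the oxytocin receptor is known to increase toward term.

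RefSeq promoter windows (build GRCm38.p6, 250 bases before to 50 after a gene's start) were matched for 8 of the 10 genes; Atp2a2 and Itpr1 were not among them. Pln and Kcnmb1, which encode regulatory partners of a pump and a channel, had 1 CG dinucleotide each in the window, fewer than the median of 7 over 32851 windows. Rgs2, the most abundant of the 10, had 33, and Oxtr, the least abundant, had 20. The 250 bases before each of these 4 starts are printed to show this range, 5′ to 3′ on the gene's strand, with CG dinucleotides in capitals. Without the 50 bases after the start, these stretches hold 30 CG dinucleotides in Rgs2, 12 in Oxtr and 1 each in Kcnmb1 and Pln. They lie at chr1:144004150-144004399 (minus strand), chr6:112489826-112490075 (minus strand), chr11:33962763-33963012 (plus strand) and chr10:53337436-53337685 (plus strand).
Rgs2: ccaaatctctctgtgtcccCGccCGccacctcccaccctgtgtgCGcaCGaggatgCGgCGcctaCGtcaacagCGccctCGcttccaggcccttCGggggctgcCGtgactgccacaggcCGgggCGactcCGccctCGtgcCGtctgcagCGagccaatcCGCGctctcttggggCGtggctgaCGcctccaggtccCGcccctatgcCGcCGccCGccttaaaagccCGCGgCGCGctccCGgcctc
Oxtr: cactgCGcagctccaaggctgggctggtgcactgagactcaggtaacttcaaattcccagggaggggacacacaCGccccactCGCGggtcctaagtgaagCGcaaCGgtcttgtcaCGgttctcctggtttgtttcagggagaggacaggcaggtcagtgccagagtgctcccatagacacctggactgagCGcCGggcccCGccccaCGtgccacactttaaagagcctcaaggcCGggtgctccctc
Kcnmb1: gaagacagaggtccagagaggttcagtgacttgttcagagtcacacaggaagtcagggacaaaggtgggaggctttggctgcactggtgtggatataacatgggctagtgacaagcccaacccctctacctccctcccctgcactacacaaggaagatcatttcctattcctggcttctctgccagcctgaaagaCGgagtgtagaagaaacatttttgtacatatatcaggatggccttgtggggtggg
Pln: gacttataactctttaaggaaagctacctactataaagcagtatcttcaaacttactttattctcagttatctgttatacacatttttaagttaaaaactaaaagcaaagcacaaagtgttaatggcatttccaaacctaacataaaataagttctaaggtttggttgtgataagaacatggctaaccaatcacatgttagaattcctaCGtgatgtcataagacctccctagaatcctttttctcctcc

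Over the other genes, the window of Pde5a held 23 CG dinucleotides, that of Kcnma1 36 and that of Gnaq 39. Cacna1c has 3 annotated starts, whose windows held 3, 7 and 57. Motifs were searched on both strands. The CArG box, the binding sequence of serum response factor that is found before many smooth muscle genes, was in 0 of the 10 windows of these 8 genes, against 1.63% of all windows. TATAAA was in the Pln window only (13.6% of all windows). GGGCGG, the core of the Sp1 site, was in 6 of the 10 windows, against 35.7% of all windows. These were windows of Cacna1c, Gnaq, Kcnma1, Oxtr, Pde5a and Rgs2. In Cacna1c only the window with 57 CG dinucleotides held it. The palindromic oestrogen response element (0.0700% of all windows) and the cyclic AMP response element TGACGTCA (1.79%) were in none. A CArG box can contain TATAAA, and no other of these motifs can contain another. A missing match says only that these letters are not in the window.

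Reads behind the RPKM were recovered up to a factor common to a gene's reads and its length, because each value is a whole number of reads divided by a whole length and a library total. Where several factors were possible, the one whose length lay closest to an annotated transcript was taken. The smallest possible reads sum to 3487503 and 3874963, and among the 10 genes they differ from the reads taken for Gnaq only. Scaling totals were 3834174 in uterus 1 and 4256101 in uterus 2, and the reads taken summed to 3826580 and 4250131. Of the genes in the table, 58.4% lay at 1 RPKM or more in both uteri, the level called detected here. All 10 genes of the set were detected, 6 of them lay at 10 RPKM or more in both uteri (30.4% of all genes) and 1 at 100 RPKM or more (1.92%). The median of the set was 21.1 RPKM (uterus 1) and 20.9 RPKM (uterus 2), and the median over all genes was 3.23 RPKM as a mean of both. The highest and lowest means lay 52.8-fold apart.

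**Figure D1:**
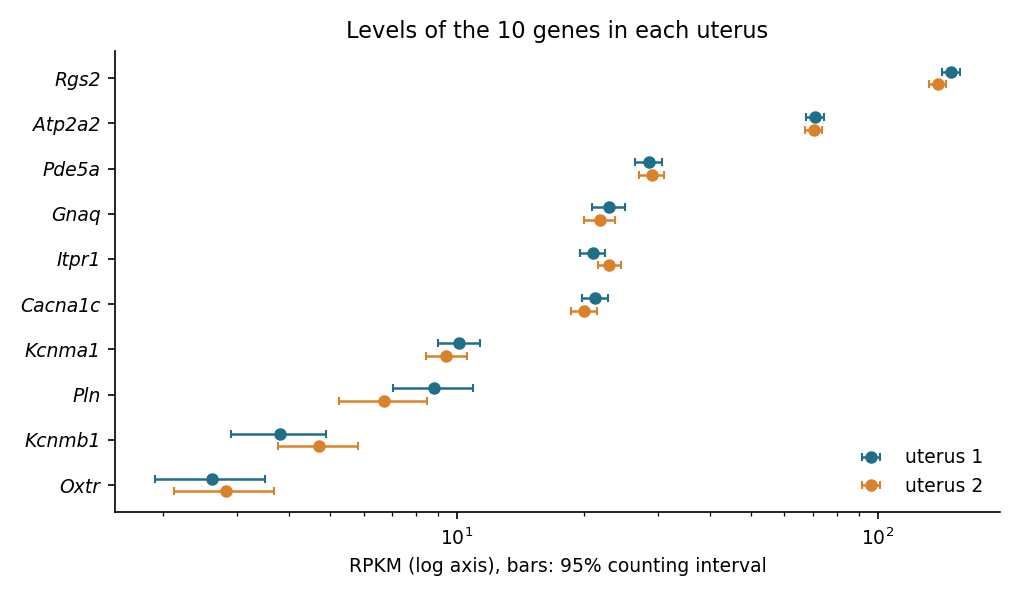
RPKM of each of the 10 genes on a log axis, with 1 point for each uterus and bars for the 95% exact Poisson interval of its reads, which covers counting error only. Rgs2 lies highest at 149 and 139 RPKM and Oxtr lowest at 2.63 and 2.83 RPKM.

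Oxtr, the oxytocin receptor, was the least abundant of the set. It had 2.63 RPKM in uterus 1 and had 2.83 RPKM in uterus 2, a mean of 2.73 ± 0.143 RPKM (SD, n = 2). These values rest on 46 and 55 reads, and 1 read was worth 0.0571 RPKM in uterus 1. The exact Poisson interval ran from 1.92 to 3.50 RPKM in uterus 1 and from 2.13 to 3.68 RPKM in uterus 2, so both libraries place it among low but detected genes: 48.0% of all genes had a lower mean. Its row (NM_001081147) spans chromosome 6, 112423678 to 112439802, minus strand, on mm9.

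Oxtr was the only detected gene of the oxytocin and vasopressin system. The vasopressin receptors Avpr1a and Avpr2 lay at 0.327 ± 0.0896 RPKM (4 and 3 reads) and 0.735 ± 0.428 RPKM (3 and 8 reads). Oxt and Avp, which encode the peptides, and the receptor Avpr1b were listed at 0 in both uteri. A listed 0 is not read as absence, since Rpl26, a ribosomal protein gene that cells in general use, is also listed at 0.

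Other receptors for contracting ligands lay on both sides of Oxtr. Of 22 in the list, 13 were detected in both uteri, 11 had a higher mean than Oxtr, and 9 lay above it with no overlap of the libraries. Overlap here compares values without counting error. Htr2b in uterus 1 (2.90 RPKM, 23 reads) and Htr2a in uterus 2 (3.01 RPKM, 38 reads) lay inside the Oxtr counting interval. In the other uterus each lay above that interval. The median of the list was 2.28 RPKM in uterus 1 and 2.26 RPKM in uterus 2, below the level of Oxtr in each. The thrombin receptor F2r lay at 44.6 ± 0.530 RPKM, the prostaglandin E receptor Ptger3 at 33.7 ± 2.40 RPKM, and the endothelin receptors Ednrb and Ednra at 30.4 ± 4.89 and 18.9 ± 2.98 RPKM. For Ptgfr, the receptor of prostaglandin F2 alpha, which contracts the uterus, the levels were 6.97 and 5.16 RPKM, which is 2.65 and 1.83 times the Oxtr level of the same library. Agtr1a (2.99 ± 0.450 RPKM) and Adra1a (2.95 ± 0.608 RPKM) overlapped Oxtr. Adra1b, Tacr2 and Tacr3 were listed at 0 in both. Several of these receptors are also made by cells other than muscle, and in whole tissue fewer cells of a type and less RNA per cell cannot be told apart.

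Receptors for relaxing ligands included the most abundant receptor of either list. Rxfp1, the relaxin receptor, stood at 82.1 RPKM in uterus 1 and at 80.2 RPKM in uterus 2. Ptger4 lay at 34.9 ± 3.08 RPKM, Calcrl, which binds adrenomedullin and CGRP with its partner proteins, at 27.0 ± 1.29 RPKM, and the natriuretic peptide receptor Npr2 at 22.9 ± 3.08 RPKM. Of 14 such receptors, 10 were detected in both uteri.

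**Figure D2:**
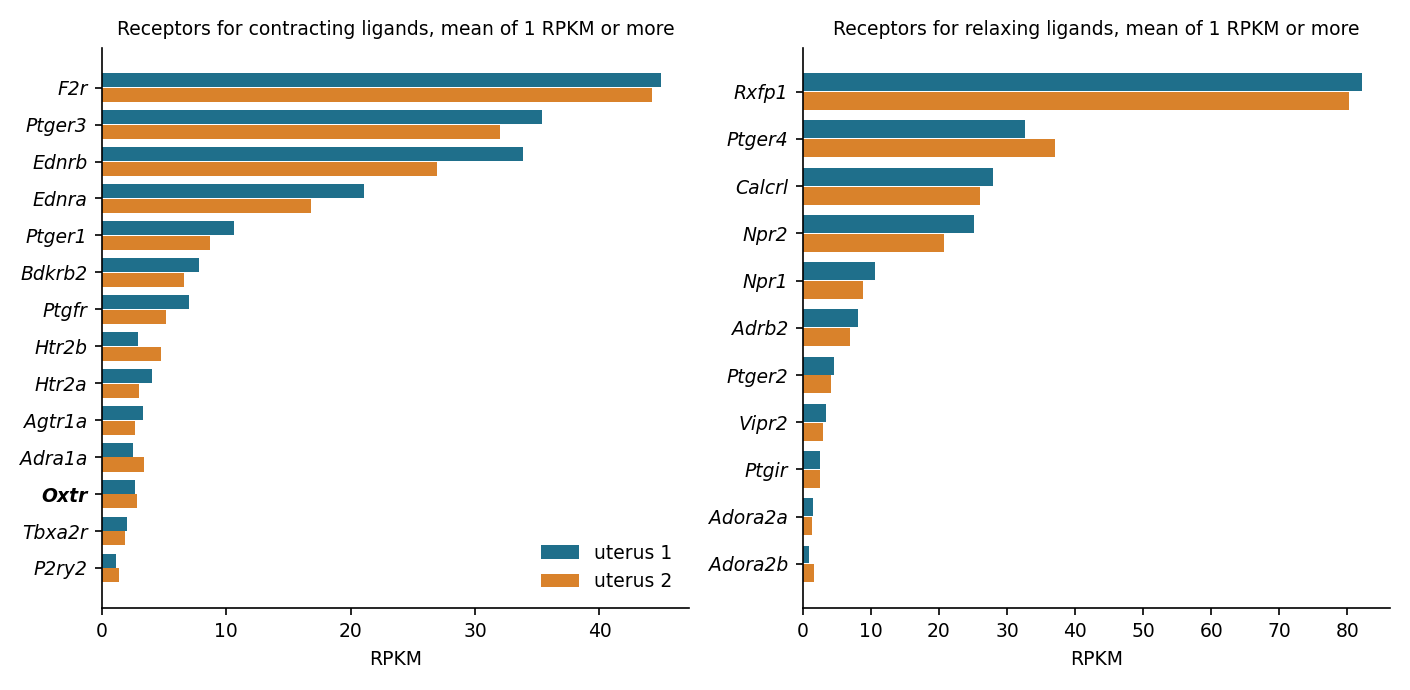
RPKM (linear axis from 0) of receptors that averaged 1 RPKM or more, with 1 bar for each uterus, for contracting ligands with Oxtr added (left) and relaxing ligands (right). Oxtr lies near the foot of the left panel at 2.63 and 2.83 RPKM, whereas F2r leads it at 44.9 and 44.2 RPKM and Rxfp1 leads the right panel at 82.1 and 80.2 RPKM.

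Gnaq, the alpha subunit of Gq that carries the oxytocin signal to phospholipase C, measured 23.0 RPKM in uterus 1 against 21.9 RPKM in uterus 2 (22.4 ± 0.784 RPKM, 496 and 524 reads). Its row (NM_008139) spans chromosome 19, 16207321 to 16461943, plus strand. The read numbers of Gnaq rest on a choice: 248 and 262 reads over 2817 bases give the same RPKM, and the larger pair was taken because its length of 5634 bases is close to that of an annotated transcript. The RPKM itself does not depend on this choice.

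Gna11, which couples to the same receptors, lay at 23.8 ± 0.175 RPKM, so that the Gnaq to Gna11 ratio was 0.970 in uterus 1 and 0.914 in uterus 2. All 13 G alpha genes were detected in both uteri. Gnai2 and Gnas, the alpha subunits that inhibit and stimulate adenylyl cyclase, were the most abundant at 121 ± 3.99 and 111 ± 0.357 RPKM, followed by Gnai3 at 61.7 ± 1.60 RPKM and Gna12 at 33.9 ± 0.546 RPKM. Of the 4 phospholipase C beta genes downstream, Plcb3 led at 23.8 ± 0.825 RPKM, with Plcb4 at 14.3 ± 0.554, Plcb1 at 6.02 ± 0.121 and Plcb2 at 2.57 ± 0.762 RPKM.

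Rgs2 encodes a protein that ends Gq signalling by speeding up GTP hydrolysis on its alpha subunit, and it was the most abundant gene of the set. It had 149 RPKM in uterus 1 and had 139 RPKM in uterus 2 (144 ± 7.30 RPKM, 1720 and 1777 reads), and 98.7% of all genes had a lower mean. It held 43.9% and 42.5% of the summed RPKM of the 10 genes. Rgs2 RNA was 6.49 and 6.35 times as abundant per length as Gnaq in the same libraries. Its row (NM_009061) spans chromosome 1, 145846468 to 145851279, minus strand, the shortest span of the set.

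Rgs5 was close to Rgs2 at 128 RPKM and 124 RPKM, and the libraries of these genes did not overlap. Rgs5 is also a defining marker of pericytes, and its place in this tissue was not resolved. Rgs19 and Rgs10 followed at 19.4 ± 0.949 and 14.9 ± 2.90 RPKM. Of 20 Rgs genes in the table, 14 were detected in both uteri, and Rgs8 and Rgs13 were listed at 0. Rgs14 was at least 2-fold apart on the log2 ratio with pseudocount (1.11 and 2.59 RPKM, 10 and 26 reads, log2 ratio 1.16), and the exact binomial test gave it an adjusted p of 0.19.

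Itpr1, the inositol trisphosphate receptor through which the store releases calcium, stood at 21.0 RPKM in uterus 1 and at 23.0 RPKM in uterus 2 (22.0 ± 1.44 RPKM, 795 and 968 reads). Its row (NM_010585) spans chromosome 6, 108163090 to 108501110, plus strand. Itpr1 was not the leading release channel of the tissue: Itpr2 lay at 27.6 and 32.3 RPKM, and the Itpr1 to Itpr2 ratio was 0.761 and 0.713. Itpr3 lay lower at 5.65 ± 0.109 RPKM. Among the ryanodine receptors, the other class of release channel, Ryr3 was highest at 8.75 ± 0.818 RPKM, Ryr2 lay at 1.39 ± 0.0635 RPKM and Ryr1 at 0.245 ± 0.107 RPKM. Itpr1 was 15.6 and 16.0 times as abundant as Ryr2, the main release channel of heart muscle.

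Cacna1c, the pore of the L-type calcium channel Cav1.2, measured 21.3 RPKM in uterus 1 against 20.01 RPKM in uterus 2 (20.7 ± 0.905 RPKM, 739 and 771 reads). It was the most abundant of the 10 calcium channel pore genes and held 36.9% and 35.8% of their summed RPKM. Its row (NM_001159533) spans chromosome 6, 118542314 to 119058207, minus strand. Cacna1g and Cacna1h, pores of T-type channels that open at more negative potentials, lay at 14.1 ± 0.316 and 4.70 ± 0.474 RPKM. Cacna1d, the other widely used L-type pore, lay at 8.16 ± 0.337 RPKM, 2.53 times below Cacna1c in both uteri. Of the 10 pore genes 6 were detected, and Cacna1s, the pore of skeletal muscle, lay at 0.0417 and 0.263 RPKM on 1 and 7 reads. Among the accessory subunits, Cacna2d1 and Cacnb3 were highest at 19.9 ± 0.937 and 18.3 ± 2.19 RPKM, and Cacnb2 and Cacnb1 lay at 6.36 ± 0.705 and 5.70 ± 1.15 RPKM.

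Kcnma1, the pore of the BK potassium channel, had 10.1 RPKM in uterus 1 and had 9.45 RPKM in uterus 2 (9.78 ± 0.476 RPKM, 304 and 315 reads). It spans the longest locus of the set, 697594 bases on chromosome 14 (NM_001253368, 24125834 to 24823427, minus strand), of which the length behind the RPKM, 7836 bases, is 1.12%. The Kcnma1 to Cacna1c ratio was 0.475 in uterus 1 and 0.472 in uterus 2.

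Kcnmb1, the beta subunit that raises the calcium sensitivity of BK in smooth muscle, stood at 3.80 RPKM in uterus 1 and at 4.71 RPKM in uterus 2 (4.26 ± 0.646 RPKM). It rests on 61 and 84 reads, and its row (NM_031169) spans chromosome 11, 33863013 to 33873638, plus strand. Per length, Kcnmb1 RNA stood at 0.375 and 0.499 of Kcnma1 RNA. It was still the most abundant beta subunit gene: Kcnmb4 lay at 0.519 and 0.701 RPKM on 4 and 6 reads, Kcnmb2 at 0.179 and 0.161 RPKM on 2 reads each, and Kcnmb3 was listed at 0 in uterus 1 and at 0.326 RPKM, 1 read, in uterus 2. Lrrc52, a gamma subunit gene, was listed at 0 in both.

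Among other potassium channels, the small-conductance channel gene Kcnn3, which is also calcium-activated, lay close to Kcnma1 at 8.12 and 7.37 RPKM, below it in both uteri, and Kcnn1 lay at 2.60 ± 0.0621 RPKM. The subunits of an ATP-sensitive channel, Kcnj8 and Abcc9, lay at 18.0 ± 0.990 and 13.0 ± 0.449 RPKM, and Kcnd3 and Kcne4 at 14.3 ± 0.401 and 11.1 ± 0.390 RPKM. Of 28 further potassium channel genes, 17 were detected in both uteri, and Kcne1 and Kcnj11 were listed at 0. The list of chloride and cation channels that can depolarise the muscle, and their regulators, was led by Ano1, a calcium-activated chloride channel, at 52.0 ± 0.797 RPKM, with the stretch-activated channel Piezo1 at 16.6 ± 1.71 RPKM, Clcn3 at 14.4 ± 0.792 RPKM and Clca1, of a family that regulates chloride channels, at 9.34 ± 1.44 RPKM.

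Atp2a2, which encodes the SERCA2 pump, ranked next after Rgs2 at 71.0 RPKM in uterus 1 and at 70.4 RPKM in uterus 2 (70.7 ± 0.422 RPKM, 1559 and 1716 reads). The deposited row carries the identifier of a non-coding variant (NR_027838) and spans chromosome 5, 122903522 to 122952234, minus strand, and the values were not separated by transcript. Atp2a2 was also the highest of 12 calcium pumps and exchangers, with 31.0% and 30.6% of their summed RPKM. The surface membrane pumps Atp2b1 and Atp2b4 followed at 57.2 ± 1.91 and 31.2 ± 0.317 RPKM, and the Golgi pump Atp2c1 at 28.7 ± 1.43 RPKM. The other SERCA genes were lower: Atp2a3 lay at 13.2 ± 1.19 RPKM and Atp2a1, the pump of fast skeletal muscle, at 0.599 ± 0.312 RPKM on 5 and 12 reads.

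Pln, whose product phospholamban inhibits SERCA2 until it is phosphorylated, measured 8.83 RPKM in uterus 1 against 6.73 RPKM in uterus 2 (7.78 ± 1.49 RPKM, 84 and 71 reads). Its row (NM_023129) spans chromosome 10, 53057492 to 53065805, plus strand. Pln RNA was 0.124 of Atp2a2 RNA per length in uterus 1 and 0.0955 in uterus 2. Sln, a related SERCA inhibitor of skeletal muscle and atrium, was listed at 0 in both uteri. In the list of store buffers, store-operated entry and junction proteins, the calcium buffer Calr lay at 290 and 389 RPKM. Orai3, a calcium entry channel of the surface membrane, the junction protein Jph2 and Asph lay at 23.3 ± 1.37, 18.9 ± 2.46 and 15.3 ± 0.488 RPKM.

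Pde5a, the phosphodiesterase that breaks down cyclic GMP and so opposes relaxation by nitric oxide, had 28.6 RPKM in uterus 1 and had 29.1 RPKM in uterus 2 (28.8 ± 0.343 RPKM, 737 and 832 reads). Its row (NM_153422) spans chromosome 3, 122432076 to 122562292, plus strand. It and Pde7a, which acts on cyclic AMP and lay at 26.7 and 31.6 RPKM, were the most abundant of 24 phosphodiesterase genes, and the libraries of these genes overlapped. Pde3b and Pde3a followed at 16.7 ± 0.420 and 12.9 ± 0.211 RPKM, 18 of the 24 were detected in both uteri, and Pde6h was listed at 0. Upstream and beside it in the cyclic GMP pathway, the guanylyl cyclase subunit Gucy1a3 lay at 14.5 ± 1.15 RPKM and the cyclic GMP kinase Prkg1 at 10.3 ± 0.710 RPKM. Mrvi1, which links that kinase to the inositol trisphosphate receptor, lay at 35.7 and 25.8 RPKM. The Pde5a to Prkg1 ratio was 2.92 and 2.69.

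**Figure D3:**
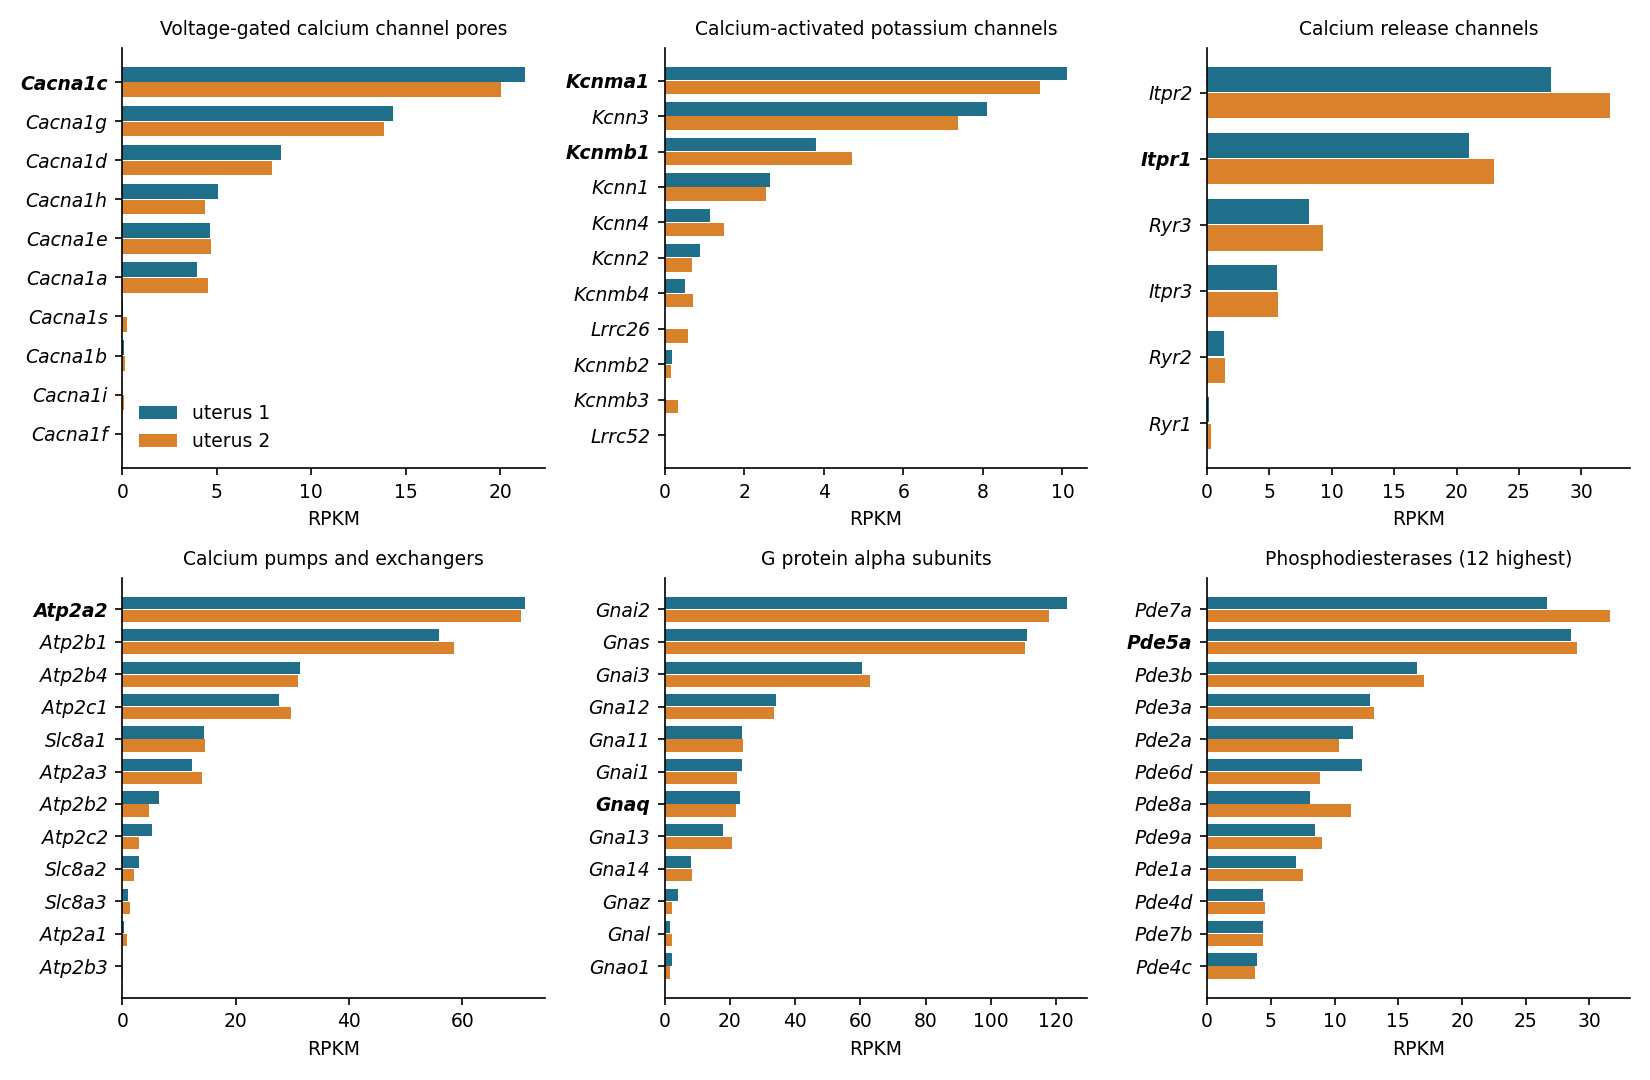
RPKM (linear axes from 0, a scale of its own in each panel) of genes in 6 families, with 1 bar for each uterus and the described genes in bold. Cacna1c, Kcnma1 and Atp2a2 lead their panels in both uteri, whereas Itpr1 lies below Itpr2, and Gnaq lies far below Gnai2 and Gnas.

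The order of the 10 genes from high to low was Rgs2, Atp2a2, Pde5a, Gnaq, Itpr1, Cacna1c, Kcnma1, Pln, Kcnmb1 and Oxtr. Of the 9 neighbouring pairs in this order, 2 had overlapping libraries: Gnaq with Itpr1, and Itpr1 with Cacna1c, whose means lay within 1.02-fold and 1.07-fold. These 3 genes form a plateau from 20.01 to 23.03 RPKM. The counting intervals were apart in both libraries for 4 pairs: Rgs2 above Atp2a2 (2.03-fold), Atp2a2 above Pde5a (2.45-fold), Pde5a above Gnaq (1.29-fold) and Cacna1c above Kcnma1 (2.11-fold). Kcnma1 over Pln, Pln over Kcnmb1 and Kcnmb1 over Oxtr kept their order in both uteri, but counting intervals overlapped in at least 1 library.

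The next question was how far the 2 uteri differed in these genes. None of the 10 was 2-fold apart on the log2 ratio with a pseudocount of 0.1 RPKM, against 2.60% of the 13647 genes that averaged 1 RPKM or more. Oxtr, Kcnmb1, Itpr1 and Pde5a were higher in uterus 2 and the other 6 higher in uterus 1; over all these genes 50.1% were higher in uterus 2. The largest differences were in 2 genes with few reads: relative to uterus 1, the RPKM of Pln in uterus 2 differed by -23.9% (log2 ratio -0.39) and that of Kcnmb1 by 24.1% (log2 ratio 0.30). The median size of the log2 ratio was 0.10 over the 10 genes and 0.17 over these 13647 genes.

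Recovered reads were compared by a two-sided exact binomial test with Benjamini-Hochberg adjustment over 15158 genes, which compares these 2 libraries and not conditions. It called 0 of the 10 genes at an adjusted p under 0.05, against 4.90% of all genes. At an unadjusted p under 0.05, 1 of the 10 passed, against 15.8% of all genes: this was Rgs2, which lay lower in uterus 2 (log2 ratio -0.10, 95% counting interval -0.20 to -0.0071, exact binomial p 0.0343, adjusted 0.259). Itpr1 came next, higher in uterus 2 (log2 ratio 0.13, interval -0.0034 to 0.27, exact binomial p 0.0534, adjusted 0.328). For Pln the interval ran from -0.87 to 0.08 and for Kcnmb1 from -0.18 to 0.81, so that, on counting error alone, ratios within these bounds could not be told apart. Oxtr had the widest interval, -0.48 to 0.70, whereas that of Atp2a2 ran from -0.11 to 0.09 around a log2 ratio of -0.01.

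**Figure D4:**
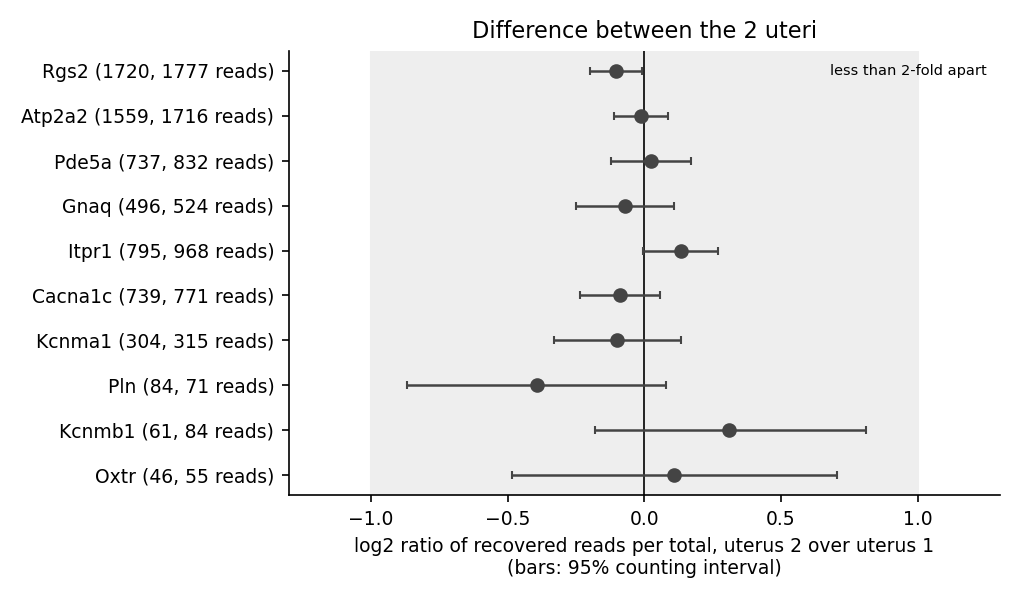
Log2 ratio of recovered reads after scaling to the library totals, uterus 2 over uterus 1, for the 10 genes with their reads in uterus 1 and uterus 2 in brackets. Bars are 95% Clopper-Pearson counting intervals and the grey area marks less than 2-fold; every interval lies inside it, and those of the genes with under 100 reads a library (Pln, Kcnmb1, Oxtr) are widest.

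The other genes of the pathway lists, 228 in the table, were detected in both uteri in 159 cases (69.7%, against 58.4% of all genes), and 14 were listed at 0 in both. The same exact binomial test called 8 of the 198 tested, 4 in each direction. This is 4.04%, against 4.90% of all genes. Itpr2 (adjusted p 0.0015), Pde7a (0.0155), Calr (6.6e-24) and Ppp1r12a, the targeting subunit of myosin phosphatase (82.5 and 102 RPKM, adjusted p 9.1e-06), were higher in uterus 2 by this exact test. Ednrb (adjusted p 0.0074), Mrvi1 (8.4e-08), the light chain kinase Mylk (141 and 129 RPKM, adjusted p 0.0023) and Chrm2 (18 and 3 reads, adjusted p 0.0171) were lower in uterus 2. In log2 ratio these were 0.23 for Itpr2, 0.24 for Pde7a, 0.43 for Calr, 0.31 for Ppp1r12a, -0.33 for Ednrb, -0.46 for Mrvi1, -0.13 for Mylk and -2.01 for Chrm2. With the smallest possible reads 6 of the 8 were called: Pde7a (adjusted p 0.179) and Chrm2 (6 and 1 reads, adjusted p 0.382) no longer passed the exact test.

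Phosphorylation of the myosin light chain is the step that sets contraction. All 15 genes of the light chain phosphorylation list were detected, led by Calm2 at 249 ± 9.79 RPKM, Rhoa at 143 ± 9.90 RPKM, Calm3 at 143 ± 1.92 RPKM and Mylk at 135 ± 8.42 RPKM. Gja1, the connexin that couples myometrial cells, lay at 65.4 and 59.2 RPKM.

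The labelled tissue was checked against cell-type markers. All 10 smooth muscle markers were detected: Acta2 lay at 622 ± 43.0 RPKM, Myh11 at 332 ± 25.8 RPKM and the lineage factor Myocd at 6.81 ± 0.0242 RPKM. The median of the list was 181 RPKM (uterus 1) and 188 RPKM (uterus 2). Against that median, Rgs2 stood at 82.4% and 73.8%, Atp2a2 at 39.3% and 37.4%, Cacna1c at 11.8% and 10.6%, and Oxtr at 1.45% and 1.504%. For all 10 genes, the part of the whole-tissue value that came from smooth muscle was not tested. Several of the 10 genes are also used in heart muscle. Of 6 cardiac markers, 1 was detected in both uteri: Tnni3 lay at 3.48 and 2.57 RPKM on 11 and 9 reads. Its mean of 3.02 RPKM is above that of Oxtr, but in uterus 2 it lay below Oxtr (2.83 RPKM). Myh6, Myl7 and Myl2 were listed at 0. Of 7 skeletal muscle markers, Acta1 lay at 78.4 and 89.4 RPKM and the next, Tnnt3, at 2.56 and 5.66 RPKM.

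Vessel wall cells also use several of these genes. The 5 pericyte and vessel wall markers summed to 264 RPKM in uterus 1 and 229 RPKM in uterus 2, and the exact binomial test called 4 of the 5 lower in uterus 2 (Mcam, Pdgfrb, Notch3 and Cspg4, log2 ratios -0.31 to -0.63), against 4.90% of all genes. With the smallest possible reads Mcam (adjusted p 0.201) and Cspg4 (0.239) were not called by this exact test. The fifth, Rgs5, had a log2 ratio of -0.05 and was not called. Of the 10 described genes, none of which was called, 6 lay lower in uterus 2, down to -0.39 for Pln, and 4 higher, up to 0.30 for Kcnmb1. The part of vessel wall RNA in these values was not tested. Calls were also made in other marker lists. In smooth muscle 3 of 10 were called: Acta2 (log2 ratio -0.14) and Synpo2 (-0.26) were lower in uterus 2 and Myh11 (0.16) higher. In stroma 2 of 5 were called, with Col1a1 lower (-0.48) and Dcn higher (0.34). In endothelium 1 of 5 was called, Kdr, which was lower (-0.46). In epithelium 1 of 5 was called, Krt18, which was higher (0.42). The median log2 ratio was 0.005 over the endothelium list and 0.18 over the epithelium list. All stroma, epithelium and endothelium markers were detected in both uteri, and 4 of the 5 leukocyte markers were. In uterus 1 the stroma, epithelium, endothelium and leukocyte lists summed to 3917, 244, 175 and 272 RPKM. In uterus 2 these sums were 3756, 279, 171 and 296 RPKM. Lyz2 alone held 80.2% of the leukocyte sum in uterus 1 and 79.8% in uterus 2. The nerve markers summed to 5.53 and 6.61 RPKM.

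**Figure D5:**
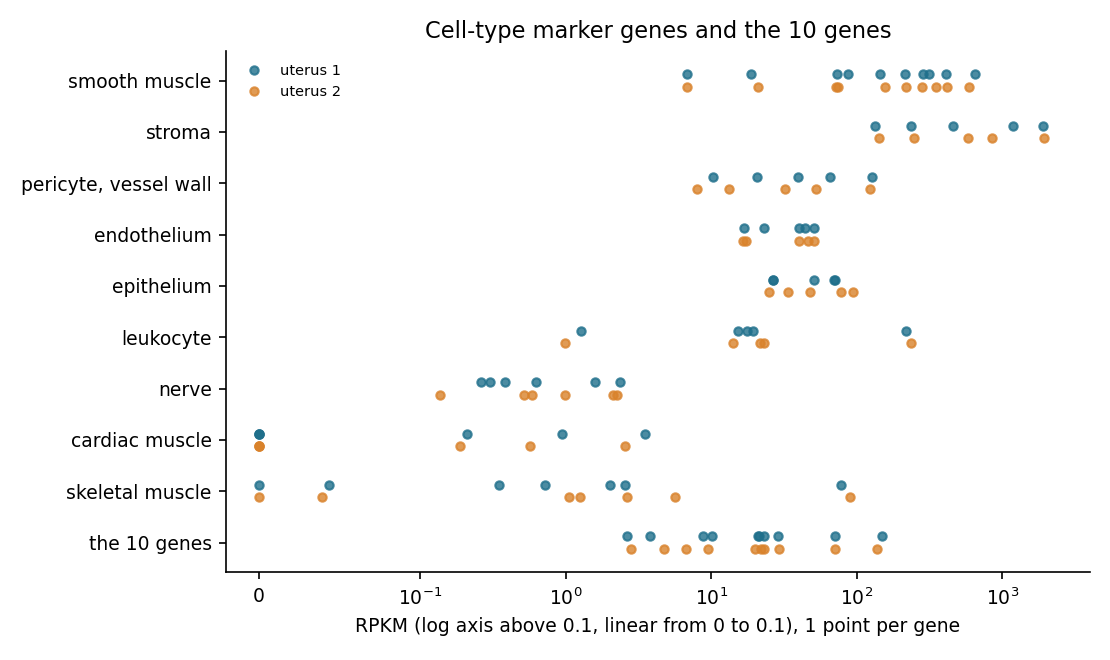
RPKM of each marker gene and of the 10 genes, with 1 point per gene and uterus; the axis is logarithmic above 0.1 and linear below. Smooth muscle markers reach 653 RPKM (Acta2, uterus 1), 3 of 6 cardiac markers sit at 0, and Acta1 is the lone skeletal muscle marker above 10 RPKM.

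Use of strand in counting is not given in the sources used here, so overlapping genes were looked up. Annotated exons of other genes covered 0 bases of 9 of the 10 genes on NCBIM37, the build called mm9. In Pln, 24 of 2480 exon bases (0.968%) are shared with Gm10942 on the opposite strand, and Cep85l, at 18.2 and 16.4 RPKM, runs across the Pln locus on the opposite strand without shared exon bases. Pde5a, Gnaq and Cacna1c each have a row on the opposite strand that overlaps their span with no shared exon bases, 4930447N08Rik, E030024N20Rik and 4931430N09Rik, at 1.02 to 7.01 RPKM.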

How the data were processed

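RNA from the whole uterus of 2 mice was sequenced, 1 library each. TRIzol extraction and TruSeq libraries are given per the labels' protocols, and poly-A selection, a HiSeq2500 and RPKM normalization in the series' design text. The submitters' processing notes name TopHat, edgeR and mm9; the counting program, annotation and use of strand are not given in the sources used here. The deposited values are RPKM, made by the authors. Both deposited tables hold equal values for 22740 genes. Deposited starts were read as counted from 0, since 12380 of 21203 genes matched to GENCODE M1 had an annotated start 1 base later, and are printed counted from 1.

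The members and lists were chosen with earlier results of these data known. Text names all 10 members and, from each pathway list, the 4 highest genes, those listed at 0, those at least 2-fold apart and those called; a few others were named after their values were seen, and 1 gene that the rule would name is not reported here. Marker lists are given by counts, sums and some of their genes. Another 6 list symbols (Rgs21, Mrln, Strit1, Arln, Erln and Saraf) were not analysed here.

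Reads, lengths and totals were recovered by writing each RPKM as a fraction of whole numbers, with totals from single-exon genes (532 of 555 gave whole reads within a relative tolerance of 1e-06). All 17426 genes above 0 gave reads. A factor common to a gene's reads and length was chosen by closeness to an annotated transcript length. The exact binomial test took genes with at least 6 reads in sum. The recovery arithmetic, with totals and lengths supplied, and the test were checked on simulated data; the choice of factor was not. Log2 ratios use a pseudocount of 0.1 RPKM and understate changes of low genes. Intervals cover counting error only and leave out variation between animals. PCR duplicates do not add molecules, so the intervals are too narrow where duplicates were counted. Python 3.11.15, scipy 1.17.1 and pandas 2.3.3 were used. Alternatives changed thresholds, pseudocount, filters, centring, the TPM scale, read recovery and totals.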

Additional observations from a re-analysis of the deposited data

How the results depend on the processing

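The counts of detected members (10), of members 2-fold apart (0) and of members called by the exact binomial test (0) stayed within 1.5 times of the reported count under every alternative run. At 5 RPKM 8 members were detected, without Kcnmb1 and Oxtr. Of the other genes of the pathway lists, 159 were detected at 1 RPKM and 92 at 5 RPKM, fewer by construction. The exact binomial test called 4.90% of all genes, and under its alternatives from 3.90% (smallest possible reads) to 5.66% (at least 20 reads in sum). In the pathway lists the smallest possible reads, an alternative chosen there after seeing the data, gave 6 calls against 8. All 40 alternative log2 ratios of members lay inside the counting interval, and 0 changed sign. These changed the pseudocount or the centring. A pseudocount added to both uteri cannot change a sign, and centring moved ratios little, so this follows largely from the arithmetic. Centring on smooth muscle markers shifted ratios by 0.01. The TPM scale multiplied levels by 2.37 and 2.36 in uterus 1 and uterus 2. Taking a single library in place of the mean moves a level by less than the SD of the pair, which follows from the arithmetic. No paired analysis was possible because only 1 group exists. Depth limits Oxtr, Kcnmb1 and Pln, with under 100 reads a library.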

Other observations

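The genes differ in how much of their locus is exon. In Rgs2 the length behind the RPKM, 3009 bases, is 62.5% of the span, in Kcnmb1 39.4%, in Pln 29.8% and in Oxtr 28.3%. In Atp2a2 it is 11.8%, in Pde5a 5.17%, in Itpr1 2.92%, in Gnaq 2.21%, in Cacna1c 1.75% and in Kcnma1 1.12%. The share of Gnaq rests on the 5634 bases taken; over 2817 bases, which give the same RPKM, it is 1.11%, the lowest of the 10. The lengths of Oxtr (4568 bases), Pln (2480 bases) and Pde5a (6728 bases) equal that of an annotated GENCODE M1 transcript. The lengths taken for the other 7 do not, and the reason was not tested.

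Relative to the smooth muscle marker median of the same library, Pde5a stood at 15.8% and 15.4%, Gnaq at 12.7% and 11.6%, Itpr1 at 11.6% and 12.2%, Kcnma1 at 5.59% and 5.02%, Pln at 4.88% and 3.58%, and Kcnmb1 at 2.10% and 2.50%. Among genes of 1 to 10 RPKM the median size of the log2 ratio was 0.24, and 0.20 for the 4 members there. From 10 to 100 RPKM it was 0.13 over all genes and 0.07 for the 5 members.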
